A study of Homo sapiens with 16 samples.

Results

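The E2F transcription factors and 2 of the pocket proteins that work with them, RBL1 (p107) and RBL2 (p130), were followed across RNA-seq samples of SK-N-BE(2)C, a human neuroblastoma cell line. The 10 genes, E2F1 to E2F8, RBL1 and RBL2, were chosen by name as a family. All 10 were among the 27037 genes of the count table, and all 10 passed the low-count filter that left 15415 genes for testing. The line is MYCN-amplified and of the adrenergic type, and this background is shared by all groups. There were 16 samples, 4 for each treatment. The treatments were DMSO as vehicle, RA (all-trans retinoic acid at 10 µM), PB (palbociclib at 1 µM), and PB+RA, both agents at those doses. Replicates were cultures of different passages of this 1 line, so their spread says nothing about other neuroblastomas.

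E2F proteins bind the promoters of genes needed for DNA replication and cell division, mostly as partners of a DP protein. E2F1, E2F2 and E2F3 are the activator class, which RB1 holds in check until cyclin D with CDK4 or CDK6, and then CDK2, phosphorylates it. E2F4 and E2F5 are mainly repressors that act with RBL1 and RBL2, and E2F4 with RBL2 and the MuvB core forms the DREAM complex of resting cells. E2F6, E2F7 and E2F8 do not bind pocket proteins. E2F6 represses within a Polycomb complex, and E2F7 and E2F8 repress E2F targets without a DP partner. PB inhibits CDK4 and CDK6, and RA is a ligand of nuclear receptors that is used to differentiate neuroblastoma cells, so the design asked how these genes responded to each agent and to the pair.

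Libraries held 19515779 to 31620821 counts in genes. On the third principal component (10.8% of the variance), replicates 1 and 2 lay on the other side from replicates 3 and 4 in all 4 groups, and values within each of these sets are given where they differ. Cell identity was checked against marker genes. The summed level of 8 adrenergic markers was 5081 to 5573 CPM (counts of the gene over the total, scaled to 1000000) with DMSO, and that of 7 mesenchymal neuroblastoma markers was 233.2 to 390.9 CPM. The Schwann cell gene SOX10 had at most 1 read in any sample, and the leukocyte gene PTPRC had at most 6.

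Several of these genes are themselves known E2F targets, so the bases just upstream of their starts are shown for E2F1, E2F2, RBL1 and E2F7, which fell, and for E2F3. The 100 bases before each RefSeq start (GRCh38.p14, strand of the gene, 5′ to 3′) are in lower case. Capitals mark matches on either strand to 4 words of the E2F consensus, TTTCCCGC, TTTCGCGC, TTTGCCGC and TTTGGCGC.
E2F1, chr20:33686386-33686485, minus strand: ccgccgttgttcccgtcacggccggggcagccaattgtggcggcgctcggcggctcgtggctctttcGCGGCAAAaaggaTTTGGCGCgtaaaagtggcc
E2F2, chr1:23531234-23531333, minus strand: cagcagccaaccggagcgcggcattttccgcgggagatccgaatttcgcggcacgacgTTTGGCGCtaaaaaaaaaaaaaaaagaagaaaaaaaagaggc
E2F3, first start, chr6:20401779-20401878, plus strand: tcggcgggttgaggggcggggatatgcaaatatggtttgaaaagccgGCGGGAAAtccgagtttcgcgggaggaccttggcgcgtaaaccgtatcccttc
RBL1, chr20:37095998-37096097, minus strand: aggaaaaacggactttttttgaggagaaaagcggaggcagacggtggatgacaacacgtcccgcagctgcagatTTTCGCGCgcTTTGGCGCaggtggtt
E2F7, chr12:77065570-77065669, minus strand: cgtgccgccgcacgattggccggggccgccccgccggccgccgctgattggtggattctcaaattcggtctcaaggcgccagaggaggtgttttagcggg

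The promoter table held 8 of the 10 members (not E2F5 and E2F8), in 10 windows of 300 bases around a start. E2F1 had 2 matches, with first bases 33 and 20 bases before its start. RBL1 also had 2 matches, 26 and 16 bases before its start. E2F2 had 1 match, 42 bases before its start, and the first start of E2F3 had 1, 53 bases before it. No match lay in the windows of E2F4, E2F6, E2F7, either start of RBL2, or the second start of E2F3. Of 35116 promoters of the same length, 1164 (3.31%) held a match and 51 (0.145%) held 2 or more. Windows with a match were thus found for members that fell (E2F1, E2F2, RBL1) and for E2F3, which did not, and E2F7 fell without one. A match of letters is no measure of binding, and a window without one says only that these words are not in it.

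In GRCh37 (the hg19 assembly of the files), with the GENCODE 44 gene models mapped to it, E2F1 spans 32263283 to 32274191 and RBL1 35624752 to 35724400 on chromosome 20, both on the minus strand. E2F2 spans 23832930 to 23857725 on chromosome 1 (minus), E2F7 spans 77415028 to 77459349 on chromosome 12 (minus), and E2F8 spans 19245610 to 19263167 on chromosome 11 (minus). E2F6 spans 11584501 to 11606303 on chromosome 2 (minus), and E2F3 spans 20402110 to 20493945 on chromosome 6 (plus). E2F4 (67226058 to 67232821) and RBL2 (53467889 to 53525560) are on the plus strand of chromosome 16. Reads of the whole gene were counted, so transcripts of a gene were not told apart.

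Of the 10 genes, 5 fell steeply, E2F5 was called higher with RA, and the other 4 were called in no comparison. E2F1, E2F2, E2F7, E2F8 and RBL1 each stood in the order DMSO, RA, PB, PB+RA from high to low, with no overlap between neighbouring groups in CPM. Of all genes tested, 3.47% had that order without overlap. With both agents the mean level was 23.1% of the DMSO mean for E2F1, 8.96% for E2F2, 6.02% for E2F7, 8.01% for E2F8 and 23.2% for RBL1. E2F3, E2F5, E2F6 and RBL2 had overlapping values between all neighbouring groups in their order. Groups that were not neighbours could still be apart. For E2F3, every RA sample (at least 89.8 CPM) and every PB sample (at least 92.3 CPM) was above every DMSO sample (at most 86.3 CPM). The share of all genes tested with such an order is not given here.

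**Figure D1:**
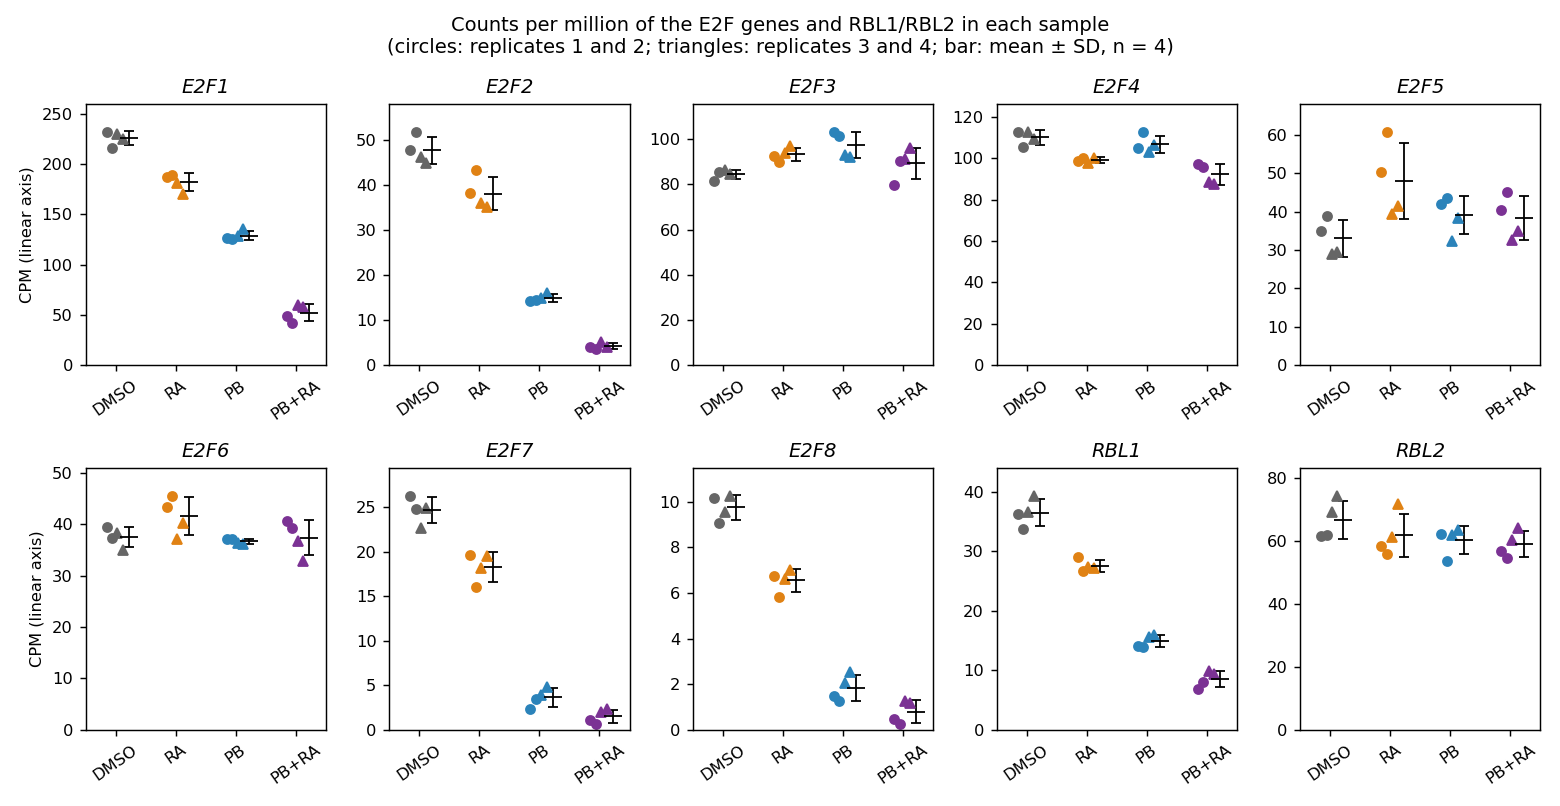
Level of each gene (vertical axis, CPM, linear from 0) in the 4 samples of each group (horizontal axis). Circles are replicates 1 and 2, triangles replicates 3 and 4, and the bar is the mean ± SD (n = 4). E2F1, E2F2, E2F7, E2F8 and RBL1 descend in 4 separate steps, while E2F3 stays between 79.9 and 103.3 CPM.

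Among the activators, E2F2 lost the most. Its levels in replicates 1 to 4 were 47.8, 51.8, 46.2 and 44.8 CPM with DMSO, and 38.1, 43.2, 35.9 and 35.1 CPM with RA. They were 14.2, 14.4, 14.97 and 16.02 CPM with PB, and 4.14, 3.63, 5.21 and 4.10 CPM with PB+RA. Every RA sample was below every DMSO sample, every PB sample was below every RA sample, and the PB+RA samples were the lowest.

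E2F1, the activator with the highest level, followed the same steps from 232.4, 216.1, 230.4 and 225.1 CPM with DMSO. It measured 187.6, 189.5, 181.1 and 170.1 CPM with RA, and 126.3, 125.3, 128.6 and 135.3 CPM with PB. With PB+RA it measured 49.1, 41.6, 59.4 and 58.2 CPM, so no group overlapped another. E2F3, the third activator, stayed near its starting level of 84.5 ± 2.06 CPM (mean ± SD, n = 4) and was 93.2 ± 2.94 with RA, 97.5 ± 5.74 with PB and 89.3 ± 6.74 with PB+RA.

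E2F7 and E2F8, the DP-independent repressors, fell to the lowest levels of the family. E2F7 was at 26.2, 24.8, 22.7 and 24.9 CPM with DMSO and at 19.6, 15.97, 18.1 and 19.6 CPM with RA. It was at 2.32, 3.48, 3.85 and 4.80 CPM with PB and at 1.07, 0.664, 1.94 and 2.26 CPM with PB+RA. The largest step of E2F7 was thus between RA and PB, where no values lay between 4.80 and 15.97 CPM.

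E2F8 was at 10.2, 9.09, 9.55 and 10.3 CPM with DMSO and at 6.76, 5.82, 6.59 and 7.03 CPM with RA. It was at 1.46, 1.26, 2.04 and 2.54 CPM with PB and at 0.477, 0.221, 1.25 and 1.18 CPM with PB+RA, which rest on 12, 5, 31 and 23 reads. The highest PB+RA sample (1.25 CPM) was just below the lowest PB sample (1.26 CPM). In both genes the PB+RA samples of replicates 1 and 2 (means of 0.869 CPM for E2F7 and 0.349 for E2F8) were below those of replicates 3 and 4 (2.10 and 1.22 CPM).

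RBL1 and RBL2, the 2 pocket proteins among the members, parted. RBL1 was at 36.4, 33.7, 36.6 and 39.3 CPM with DMSO, at 29.1, 26.7, 27.3 and 27.3 with RA, at 14.1, 13.8, 15.6 and 15.9 with PB, and at 6.80, 7.93, 9.82 and 9.28 with PB+RA. RBL2 was at 66.6 ± 6.12 CPM with DMSO, 61.7 ± 6.86 with RA, 60.1 ± 4.53 with PB and 58.9 ± 4.14 with PB+RA (mean ± SD, n = 4). All 4 groups of RBL2 overlapped. Its mean in replicates 1 and 2 was below that in replicates 3 and 4 in every group. These means were 61.6 against 71.55 CPM with DMSO and 57.1 against 66.3 with RA. With PB they were 57.8 against 62.4, and with PB+RA 55.6 against 62.1. The exons of RBL2 share 609 bases (7.51%) with AKTIP on the opposite strand (9.28 CPM on average against 61.8 for RBL2), so its level and its ratio to RBL1 carry an uncertainty, as the strand setting of the counts is not given in the sources used here. RBL2 in PB replicate 2 (53.4 CPM) stood below the other 3 PB samples, which were at 61.6 to 63.3 CPM.

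Among the repressors, E2F4, the main partner of RBL2, moved little but with small spread. It was at 112.7, 105.4, 112.9 and 109.3 CPM with DMSO, 98.6, 100.4, 97.6 and 100.3 with RA, 104.8, 112.8, 103.2 and 106.5 with PB, and 97.4, 95.7, 88.8 and 87.4 with PB+RA. DMSO and PB samples overlapped, RA samples were below both, and PB+RA samples were the lowest, with a mean at 83.9% of that with DMSO. E2F6, the Polycomb partner, was at 37.5 ± 1.88 CPM with DMSO, 41.6 ± 3.65 with RA, 36.7 ± 0.480 with PB and 37.4 ± 3.42 with PB+RA.

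E2F5 was at 34.9, 39.0, 28.8 and 29.6 CPM with DMSO and at 50.5, 60.9, 39.3 and 41.4 CPM with RA. Its PB samples (32.3 to 43.5 CPM) and PB+RA samples (32.6 to 45.2 CPM) overlapped both of those groups. Replicates 1 and 2 exceeded replicates 3 and 4 in every group. The lowest RA sample (39.3 CPM) was just above the highest DMSO sample (38.97 CPM). The share of all genes with RA samples above DMSO samples without overlap is not given here. The exons of E2F5 share 991 bases (16.5%) with RBIS on the opposite strand (20.7 CPM on average against 39.6 for E2F5), and the same uncertainty applies. RBIS differed from DMSO by -0.29 on the log2 scale with RA, the other way from E2F5.

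Changes were tested with the quasi-likelihood F-test of edgeR, and p-values were adjusted by Benjamini-Hochberg over all genes tested. A gene was called at an adjusted p below 0.05 with an absolute log2 fold change above 0.5. With PB, 5 of the 10 members were called lower, against 11.3% of all genes tested. E2F7 fell by 2.77 ± 0.235 on the log2 scale (± SE, adjusted p = 9.18e-08), and E2F8 fell by 2.42 ± 0.283 (adjusted p = 2.56e-06). E2F2 fell by 1.68 ± 0.092 (adjusted p = 9.52e-10), RBL1 fell by 1.30 ± 0.093 (adjusted p = 1.16e-08) and E2F1 fell by 0.81 ± 0.082 (adjusted p = 4.86e-07).

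No member was called higher with PB by edgeR's quasi-likelihood test, against 16.9% of all genes tested, nor by DESeq2 or limma-voom. At an unadjusted p below 0.05 there was 1, E2F3, with a log2 fold change of 0.21 (adjusted p = 0.00394) that lay under the fold minimum. For E2F4 (-0.04), E2F5 (0.24), E2F6 (-0.03) and RBL2 (-0.15) the log2 fold changes did not pass the adjusted threshold. With the replicate number as a block, E2F5 (0.24, adjusted p = 0.000715) and RBL2 (-0.14, adjusted p = 0.0111) passed it, under the fold minimum. E2F4 and E2F6 did not pass there either.

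With RA the falls were shallow. Of the 10 members, 0 were called lower, against 2.54% of all genes tested, and 1 was called higher, E2F5, against 10.8%. DESeq2 and limma-voom each called 1 lower, E2F8. At an unadjusted p below 0.05 in edgeR's test, 5 were lower and 2 were higher, E2F3 and E2F5. The log2 fold changes were -0.32 for E2F1 (adjusted p = 0.0061), -0.33 for E2F2 (adjusted p = 0.00755) and -0.41 for RBL1 (adjusted p = 0.00212), all under the fold minimum although every RA value was below every DMSO value. Of all genes tested, 17.9% were lower with RA in this way. E2F4 was at -0.16 (adjusted p = 0.0156). E2F3 was at 0.13 (adjusted p = 0.0665), and with the replicate number as a block at 0.13 (adjusted p = 0.0385), under the fold minimum.

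E2F8 with RA had a log2 fold change of -0.59 ± 0.253 (adjusted p = 0.0837), and E2F7 had -0.44 ± 0.209 (adjusted p = 0.116). With the replicate number as a block, E2F8 was called (-0.59, adjusted p = 0.00383). In that fit E2F7 had -0.44 (adjusted p = 0.0187), under the fold minimum. E2F5 rose by 0.53 ± 0.146 on the log2 scale (adjusted p = 0.0105), just past the fold minimum. It was under the fold minimum without DMSO replicate 3 (0.45) or 4 (0.48), without RA replicate 1 (0.49) or 2 (0.39), and within replicates 3 and 4 alone (0.41). With the block and a correction for GC content and length, the split of all called genes with RA moved from 392 lower and 1661 higher to 948 lower and 1591 higher. In that fit E2F8 (-0.68) and E2F7 (-0.56) were called lower and E2F5 (0.46) was under the fold minimum.

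With PB+RA the same 5 genes as with PB were called lower, against 17.9% of all genes tested. The PB and PB+RA comparisons share their DMSO samples. E2F7 fell by 4.09 ± 0.259 on the log2 scale (adjusted p = 1e-09), E2F8 fell by 3.67 ± 0.313 (adjusted p = 2.94e-08) and E2F2 fell by 3.50 ± 0.103 (adjusted p = 3.98e-13). E2F1 fell by 2.15 ± 0.086 (adjusted p = 4.01e-12) and RBL1 fell by 2.14 ± 0.096 (adjusted p = 1.34e-11).

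The fall of the 5 genes with PB+RA was present in both replicate sets and larger in replicates 1 and 2. E2F8 had a log2 fold change of -4.77 in replicates 1 and 2 and of -3.08 in replicates 3 and 4. For E2F7 these were -4.88 and -3.58, for E2F2 -3.70 and -3.34, for E2F1 -2.33 and -2.02, and for RBL1 -2.28 and -2.05.

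No member was called higher with PB+RA by edgeR's quasi-likelihood test, DESeq2 or limma-voom, and 0 were higher at an unadjusted p below 0.05. Of all genes tested, 24.0% were called higher. E2F4 had a log2 fold change of -0.28 ± 0.047 (adjusted p = 6.14e-05) and RBL2 of -0.21 ± 0.082 (adjusted p = 0.0363), both under the fold minimum. E2F3 (0.05, adjusted p = 0.42), E2F5 (0.18, adjusted p = 0.279) and E2F6 (-0.03, adjusted p = 0.72) did not pass. With the replicate number as a block, E2F5 (0.18) had an adjusted p of 0.0059, under the fold minimum.

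**Figure D2:**
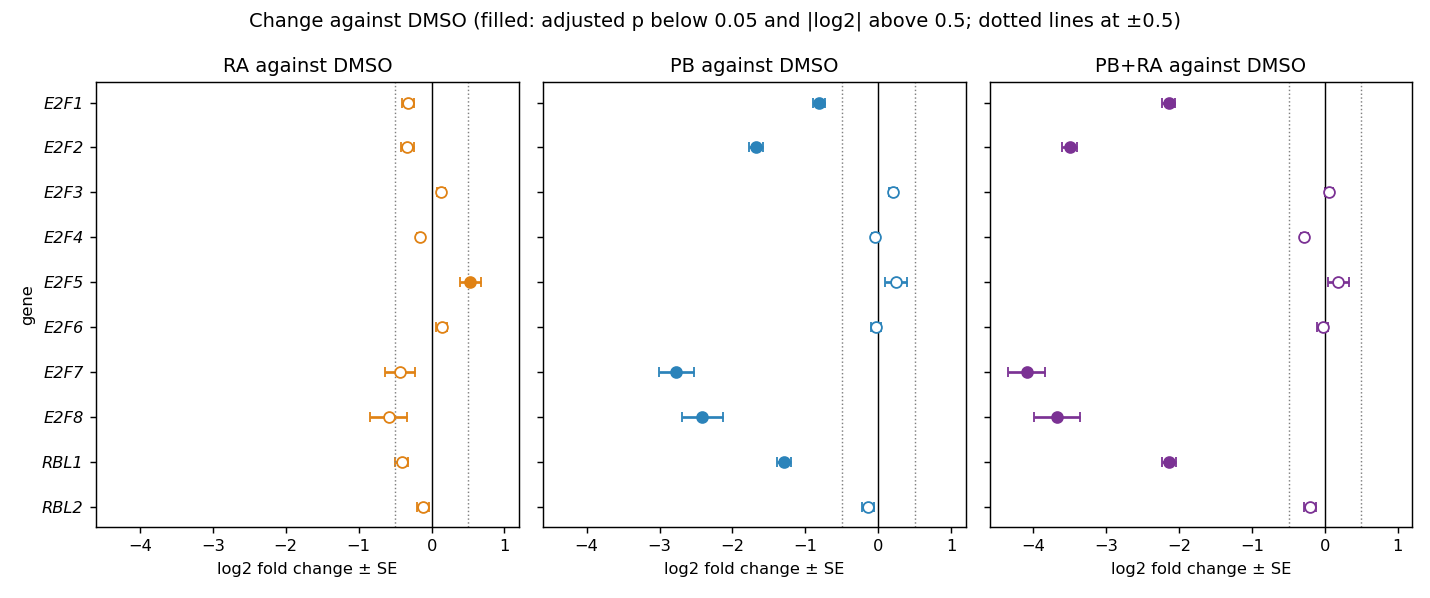
Log2 fold change ± SE against DMSO (horizontal axis) of each gene (vertical axis) with RA, PB and PB+RA, from edgeR's quasi-likelihood fit of 16 samples. Filled points passed both thresholds. E2F5 is the filled point with RA, at 0.53, and the same 5 genes are filled with PB and with PB+RA, reaching -4.09 for E2F7.

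Adding RA to PB lowered the 5 genes further. Between PB+RA and PB, 5 members were called lower, against 7.27% of all genes tested. E2F2 fell by 1.83 ± 0.103 on the log2 scale (adjusted p = 3.9e-09) and E2F1 fell by 1.34 ± 0.085 (adjusted p = 1.15e-08). E2F7 fell by 1.33 ± 0.273 (adjusted p = 0.00133), E2F8 fell by 1.26 ± 0.341 (adjusted p = 0.0083) and RBL1 fell by 0.84 ± 0.097 (adjusted p = 5.51e-06).

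The step of E2F8 from PB to PB+RA was the least certain of these. It did not pass when only the PB and PB+RA samples were fitted (log2 fold change of -1.24, adjusted p = 0.0629). It was -1.94 within replicates 1 and 2, and -0.93 within replicates 3 and 4. E2F4 was also lower with PB+RA than with PB, at a log2 fold change of -0.24 (adjusted p = 0.000908) that was under the fold minimum.

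Adding PB to RA gave larger steps. Between PB+RA and RA, the same 5 members were called lower, against 14.1% of all genes tested. E2F7 fell by 3.66 ± 0.258 on the log2 scale (adjusted p = 9.21e-09), E2F2 fell by 3.17 ± 0.103 (adjusted p = 3.05e-12) and E2F8 fell by 3.09 ± 0.315 (adjusted p = 4.89e-07). E2F1 fell by 1.83 ± 0.085 (adjusted p = 8.77e-11) and RBL1 fell by 1.73 ± 0.096 (adjusted p = 4.58e-10). E2F5 had a log2 fold change of -0.35 from RA to PB+RA (adjusted p = 0.0564) that did not pass. With the replicate number as a block this was -0.34 (adjusted p = 1.69e-05), under the fold minimum. From PB to PB+RA, where RA was added to PB, E2F5 had a log2 fold change of -0.06 (adjusted p = 0.798).

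The interaction asked whether the change with both agents differed from the sum of the single log2 changes. A negative value is called below additive here, so for a gene that fell it means a larger fall than the single falls summed. E2F1 and E2F2 were called below additive, against 3.02% of all genes tested. For E2F2 the single changes summed to -2.01 and the change with both was -3.50, an interaction of -1.50 ± 0.135 (adjusted p = 3.59e-05). For E2F1 they summed to -1.13 against -2.15 with both, an interaction of -1.02 ± 0.117 (adjusted p = 0.000244). Of all genes tested, 466 were called below and 64 above additive, and 759 and 305 with the block and the GC and length correction, where E2F1 and E2F2 were called too.

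The 3 other genes that fell were not called in the interaction. RBL1 was at -0.43 ± 0.132 (adjusted p = 0.0715), E2F7 at -0.89 ± 0.344 (adjusted p = 0.169) and E2F8 at -0.67 ± 0.424 (adjusted p = 0.452). E2F7 and E2F8 had smaller point values than E2F1 and larger SE. RBL1 was under the fold minimum in this fit and was called without PB+RA replicate 3, at -0.51. With the replicate number as a block RBL1 was at -0.44 (adjusted p = 0.00956), under the fold minimum. Whether the interaction of E2F1 or E2F2 differed from that of the other members was not tested.

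E2F5 had an interaction of -0.59 ± 0.207 (adjusted p = 0.126), since its single changes summed to 0.77 and its change with both was 0.18. With the replicate number as a block the SE was 0.078 and the interaction was called (-0.58, adjusted p = 3e-05). It was also called within replicates 1 and 2 (-0.60, adjusted p = 0.0405) and within replicates 3 and 4 (-0.51, adjusted p = 0.00731). E2F3 was at -0.29 (adjusted p = 0.0369), under the fold minimum, and E2F4, E2F6 and RBL2 lay between -0.14 and 0.06.

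**Figure D3:**
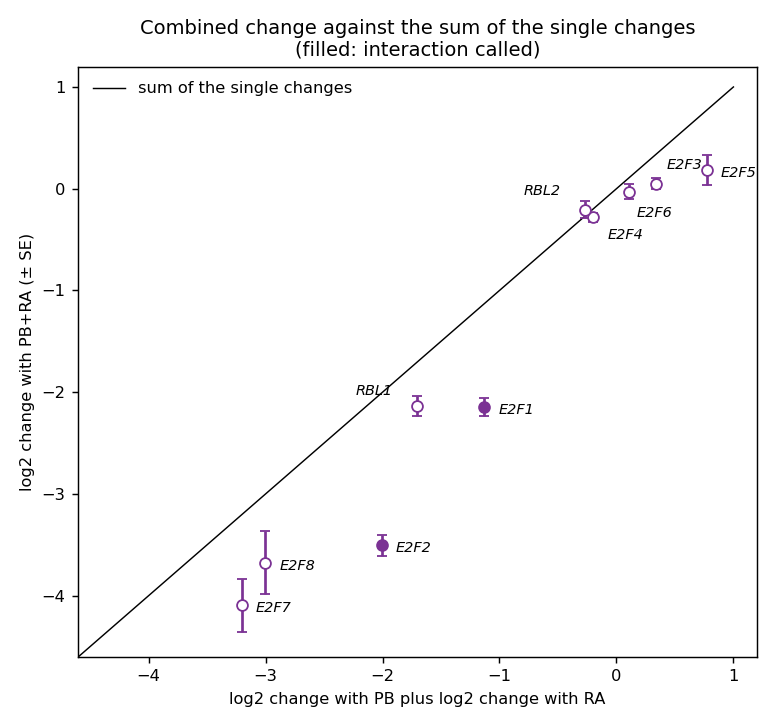
Log2 change with PB+RA against DMSO ± SE (vertical axis) against the sum of the log2 changes with PB and with RA (horizontal axis) for the 10 genes. Points on the line are additive, and filled points were called in the interaction. E2F1 (-1.13 against -2.15) and E2F2 (-2.01 against -3.50) lie below the line.

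Levels of different genes were compared as CPM per kilobase of exon. With DMSO the order was E2F1 (84.0), E2F4 (30.6), E2F3 (16.3), E2F6 (9.23), E2F2 (8.73), RBL2 (8.21), RBL1 (6.13), E2F5 (5.52), E2F7 (3.92) and E2F8 (2.36). The ranges of E2F6, E2F2 and RBL2 overlapped in this order, as did those of RBL1 and E2F5. With PB+RA the highest was E2F4 (25.7), followed by E2F1 (19.4) and E2F3 (17.2), and E2F2 (0.782), E2F7 (0.236) and E2F8 (0.189) were the lowest. E2F1 and E2F3 overlapped there, as did E2F7 and E2F8. E2F1 exceeded E2F4 by a ratio of 2.75 ± 0.013 with DMSO, 2.45 ± 0.127 with RA and 1.62 ± 0.093 with PB, and the ratio was 0.760 ± 0.158 with PB+RA (SD, n = 4). The SD is between samples and does not cover the choice of gene length.

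The class makeup of the E2F message changed with these falls. The summed level of the 8 E2F genes was 160.7 ± 3.24 CPM per kilobase with DMSO, 142.9 ± 5.26 with RA, 115.7 ± 2.24 with PB and 79.0 ± 1.28 with PB+RA. E2F1 to E2F3 made up 67.9 ± 0.434% of it with DMSO, 64.8 ± 0.877% with RA, 60.0 ± 0.979% with PB and 47.2 ± 4.26% with PB+RA. E2F4 to E2F6 made up 28.2 ± 0.401%, 32.1 ± 0.984%, 39.1 ± 1.14% and 52.3 ± 4.55% in the same order. E2F7 and E2F8 together went from 3.91 ± 0.189% with DMSO to 0.534 ± 0.296% with PB+RA.

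The balance of RBL1 and RBL2 shifted in the same direction in every group. The ratio of RBL2 to RBL1, each per kilobase, was 1.24 to 1.39 with DMSO, 1.47 to 1.93 with RA, 2.84 to 3.24 with PB and 4.50 to 6.14 with PB+RA, with no overlap. RBL2 itself was not called in any of the 5 comparisons, while RBL1 was called lower in 4. These are message levels, and neither protein level nor phosphorylation was measured here. Ratios are descriptions of levels and were not tested.

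**Figure D4:**
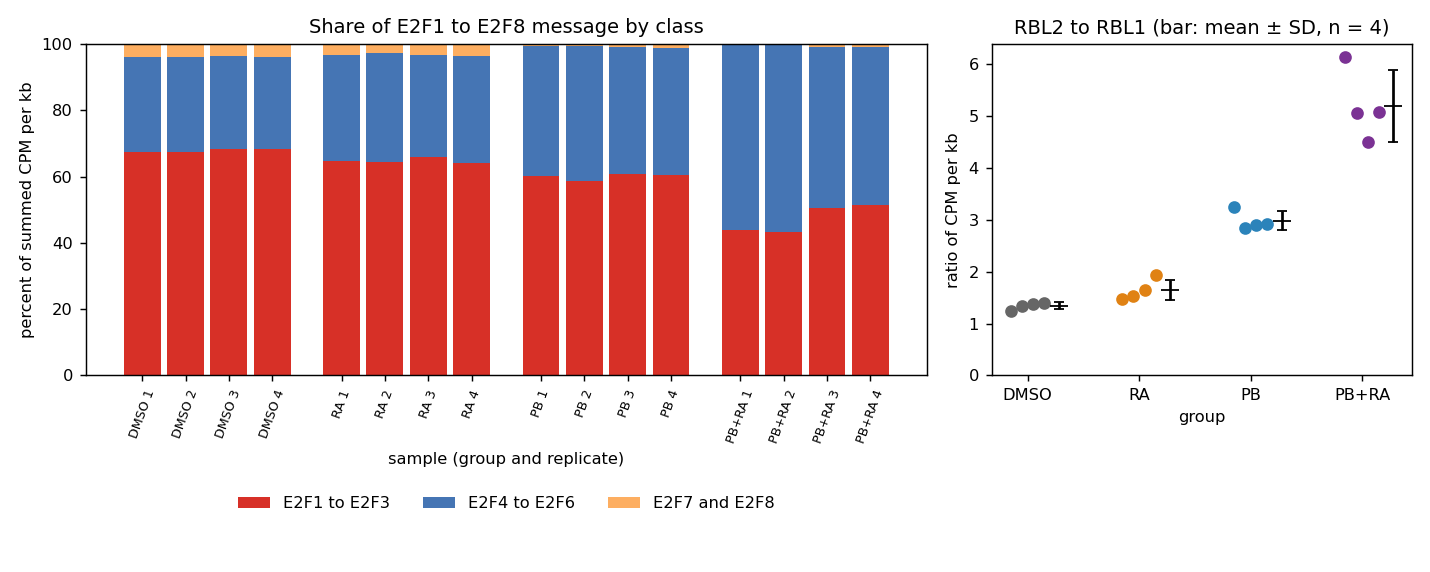
Left, the percent of the summed CPM per kilobase of E2F1 to E2F8 (vertical axis, 0 to 100) held by each class in each sample (horizontal axis). Right, the ratio of RBL2 to RBL1 in CPM per kilobase (vertical axis, from 0) per sample and as mean ± SD (n = 4). The share of E2F4 to E2F6 grows from 28.2% with DMSO to 52.3% with PB+RA, and the ratio grows from 1.34 to 5.19. The total behind the shares falls from 160.7 to 79.0 CPM per kilobase.

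Among the DP proteins that most E2Fs need to bind DNA, the 2 tested moved apart. TFDP1 was lower with PB (log2 fold change of -0.61) and PB+RA (-1.18). TFDP2 was higher with PB+RA (0.56) and not called with PB (0.42). Neither was called with RA by edgeR's quasi-likelihood test, DESeq2 or limma-voom, although 1 was lower and 1 higher at an unadjusted p below 0.05. TFDP1 with RA (-0.42) was called with the block and GC and length correction (-0.52).

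Of the 6 tested genes for RB1 and the kinases that act on it, 1 was called lower and 1 higher with PB by edgeR's test. These counts are near the shares of all genes tested, 11.3% and 16.9%. With PB+RA 4 were called lower and 1 higher, against 17.9% and 24.0%. CDK2, the partner of cyclin E, had a log2 fold change of -2.04 with PB and -2.93 with PB+RA. CCND1, a D-type cyclin that activates CDK4 and CDK6, had 0.81 with PB and 0.62 with PB+RA, the second under the fold minimum without DMSO replicate 2 (0.485). RB1 was not called with PB (-0.45, but called at -0.50 without PB replicate 4) and was lower with PB+RA (-0.70), as were CDK4 (-0.59) and CCND3 (-0.68). CDK6 lay at the fold minimum. It was not called in this fit (0.49 with PB, 0.43 with PB+RA, 0.48 with RA), but it was called higher with PB by limma-voom (0.51) and with the replicate block (0.51). Without DMSO replicate 4 it was called with PB (0.58), RA (0.57) and PB+RA (0.52), without RA replicate 1 with RA (0.60), and without PB+RA replicate 1 with PB+RA (0.52). With RA and all samples none of the 6 was called by edgeR's quasi-likelihood test, DESeq2 or limma-voom, and 3 passed an unadjusted p below 0.05 (2 lower, 1 higher).

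MuvB subunits pair with E2F4 and RBL2 in resting cells, and with MYBL2 and then FOXM1 in dividing cells. Of these 8 genes, 4 were lower with PB, against 11.3% of all genes tested. With PB+RA 6 were lower and 1 higher, against 17.9% and 24.0%. FOXM1 had log2 fold changes of -1.48 with PB and -2.91 with PB+RA, MYBL2 had -1.18 and -2.40, and MYBL1 had -1.13 and -1.30. The MuvB subunits moved less. LIN52 was at -0.62 and -0.72, LIN9 at -0.12 (not called) and -0.56 (-0.495 and not called without DMSO replicate 4), RBBP4 at -0.30 (not called) and -0.52, and LIN54 was called in neither. LIN37 was higher with PB+RA (0.65), but under the fold minimum within replicates 3 and 4 (0.49). With RA and all samples none of the 8 was called by any of the 3 tools, and 3 were lower at an unadjusted p below 0.05. FOXM1 with RA (-0.46) was called without DMSO replicate 3 (-0.50) and with the block and GC and length correction (-0.58).

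In the Polycomb complex that holds E2F6, 8 of 9 genes could be tested. With PB, 1 was called lower and 0 higher, against 11.3% and 16.9% of all genes tested. With PB+RA, 1 was called lower and 2 higher, against 17.9% and 24.0%. These counts lay near or under the shares of all genes. PCGF6, the defining subunit of the complex, was lower with PB (log2 fold change of -0.83) and PB+RA (-1.33). MAX (0.51) and YAF2 (0.57) were called higher with PB+RA, both near the fold minimum. MAX was under it with DESeq2 (0.49). Leaving out either of the first 2 DMSO samples (0.47 each) or of the first 2 PB+RA samples (0.48 each) had the same effect. Both were under it within replicates 3 and 4 (0.40 and 0.45). CBX3, a chromodomain subunit, was just short of the minimum with PB+RA (-0.49). It was called lower by DESeq2 (-0.51). It was also called when DMSO replicate 1 (-0.54) or 2 (-0.53) was left out, and when PB+RA replicate 2 (-0.53), 3 (-0.56) or 4 (-0.54) was. The other tested genes were not called in either comparison by edgeR's test. With RA none was called by edgeR's quasi-likelihood test, DESeq2 or limma-voom, and 5 passed an unadjusted p below 0.05 (3 lower, 2 higher).

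Genes of the G1 to S transition with known E2F sites moved with the 5 members. Of 30, PB lowered 28, RA lowered 2 and PB+RA lowered 29, and the median log2 fold changes were -1.07, -0.35 and -2.05. The medians over all genes tested were 0.03, 0.01 and 0.04, and 11.3%, 2.54% and 17.9% of those genes were called lower. CCNE2 moved furthest with PB+RA, at -3.38, after -1.71 with PB and -0.67 with RA. CCNE1 moved least, at -0.23 with PB+RA and 0.24 with PB, and was not called in either. In the interaction 16 of the 30 were called below additive, that is, lower with both agents than the single changes summed to (list median -0.59). Of all genes tested, 3.02% were called so.

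Markers of dividing cells moved too. All 10 mitotic genes were lower with PB and with PB+RA, with median log2 fold changes of -1.18 and -2.52, and 1 was lower with RA (median -0.37). The shares of all genes tested were 11.3% with PB, 17.9% with PB+RA and 2.54% with RA. MKI67 was at -1.61 with PB, -2.89 with PB+RA and -0.17 with RA (not called). AURKB moved furthest with PB+RA (-3.33) and BUB1 least (-1.85). Their summed level was 2322 to 2446 CPM with DMSO, 1872 to 1965 with RA, 915.7 to 1153 with PB and 357.1 to 557.8 with PB+RA. In these bulk samples, fewer cycling cells and less E2F or RBL1 message per cell cannot be told apart. In the interaction, 9 of the 10 mitotic genes were called below additive as well, again a larger fall than the sum (list median -0.98), against 3.02% of all genes tested.

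**Figure D5:**
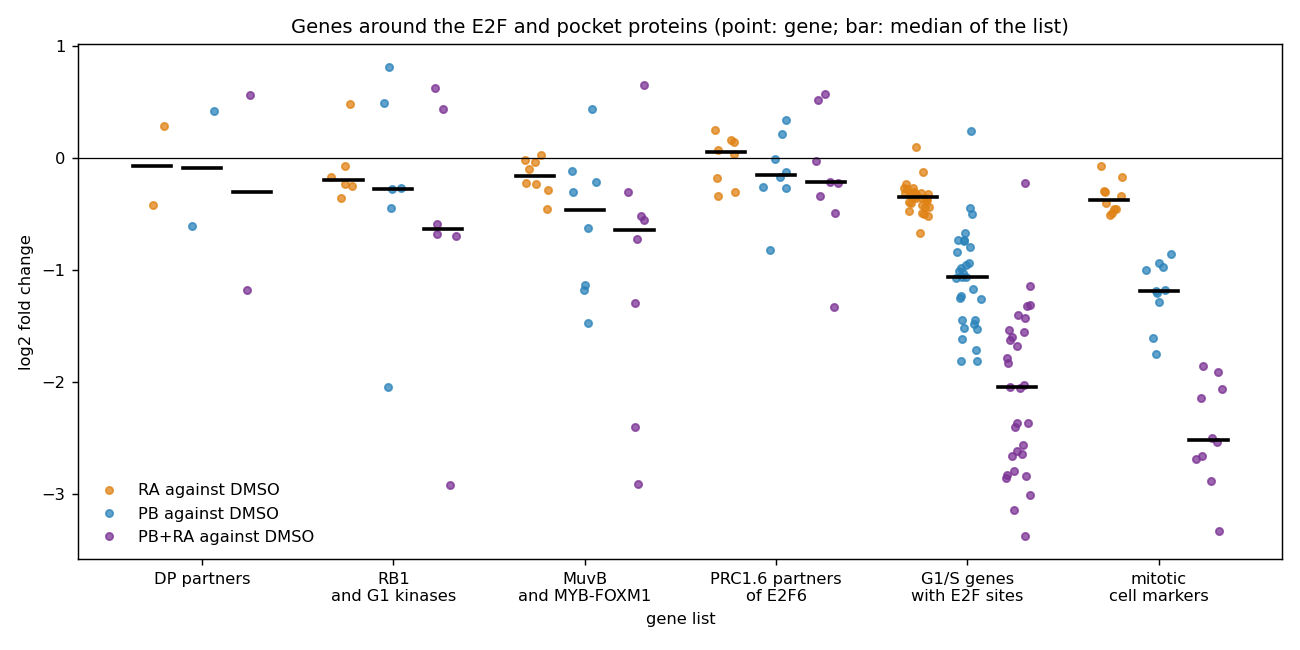
Log2 fold change (vertical axis) of each gene of 6 lists (horizontal axis) with RA, PB and PB+RA against DMSO. Points are genes and bars are list medians. The G1/S list (medians -0.35, -1.07 and -2.05) and the mitotic list (-0.37, -1.18 and -2.52) descend from RA to PB to PB+RA, while the median of the PRC1.6 list is 0.05, -0.15 and -0.22.

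Other cell states were checked beside these results. The mesenchymal marker sum was 733.8 to 1203 CPM with RA and 516.5 to 889.4 with PB+RA, above DMSO, with FN1 holding most of it and YAP1 at 0.552 to 2.97 CPM in the group means. The adrenergic sum was 8000 to 9235 CPM with PB and 6431 to 8544 with PB+RA. The part of these shifts in the E2F and RBL changes was not tested.

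Genes most like each member over the 16 samples were sought by Pearson's r of log2 CPM among 13465 genes. These values describe samples that share 4 groups, so they carry no p. For E2F1 the closest were PRR11 (0.997), PKMYT1 (0.996) and DTL (0.995). For E2F2 they were CDT1 (0.997), TACC3 (0.996) and TPX2 (0.995). For RBL1 they were USP1 (0.996), WDR76 (0.996) and DHRS13 (0.996), for E2F7 TUBA1B (0.994), CDK2 (0.993) and CHEK1 (0.992), and for E2F8 HNRNPH3 (0.991), SMC4 (0.991) and CHEK1 (0.991).

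The steadier genes had other neighbours, at lower values. E2F4 lay closest to NDUFB10 (0.967), NDUFB7 (0.955) and ACAD9 (0.952), and E2F5 to RHOBTB1 (0.935), CHRNA9 (0.922) and LINC02461 (0.900). E2F6 lay closest to PPP1R16A (0.877) and RBL2 to FBXO30 (0.899).

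Among the members themselves, E2F7 and E2F8 had r = 0.989 and E2F1 and E2F2 had r = 0.985 over the 16 samples. After the group means were removed, E2F7 and E2F8 still had r = 0.926 and E2F1 and E2F8 had r = 0.897, while E2F5 and RBL2 had r = -0.777. The points share libraries and passages. In every group the mean of E2F5 was higher, and that of RBL2 lower, in replicates 1 and 2 than in replicates 3 and 4. The part of this split in their r was not tested. E2F3 had values between -0.187 and 0.25 with every other member before the group means were removed.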

How the data were processed

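RNA-seq counts of 16 SK-N-BE(2)C samples were used, grouped and numbered by their titles. Per the labels and methods, the authors selected polyadenylated RNA, trimmed reads with Trim Galore 0.6.4 and aligned them to hg19 with STAR 2.6.1d. The deposited counts are STAR's unnormalized read counts per gene, and the annotation release and strand setting are not given in the sources used here. The deposited CPM values were scaled by the authors to a total of 1000000 per sample and equalled the count over that total within 5e-12. A deposited table of the authors' DESeq2 1.32.0 comparisons (log2 fold changes and p-values) was not used.

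Counts were fitted in R 4.3.3 with edgeR 4.0.16: filterByExpr (15415 of 27037 genes), TMM factors (0.983 to 1.02), a robust quasi-likelihood fit of 4 groups, and Benjamini-Hochberg adjustment. A gene was called at an adjusted p below 0.05 and an absolute log2 fold change above 0.5. SE is the absolute log2 fold change over the square root of F. The interaction is (PB+RA minus PB) minus (RA minus DMSO). Scripts were tested on simulated counts. Lengths and positions came from GENCODE 44 mapped to GRCh37, promoters from RefSeq (GRCh38.p14). Likeness used log2 CPM with a prior count of 2 for genes of at least 1 CPM on average.

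Same-numbered samples deviated together (r of 0.33 to 0.573 over 24 pairs, against -0.492 to 0.447 over 72 pairs with different numbers). The ranges overlap, and the numbers, taken from the titles, were read as pairing the samples. The main fit held the groups only, without this pairing, and the fits with the replicate block took it in. Replicates are passages of 1 line, and p-values measure the spread between them. At these depths 3 counts, taken as the floor, equal 0.0949 to 0.154 CPM, which covers counting error only.

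Members and lists were chosen with earlier results of these data known, and the study itself examined E2F2 and E2F8. Genes named are the 10 members, those of 4 short lists, the extremes of the G1/S and mitotic lists with CCNE2 and MKI67, marker genes, genes among the 3 most like each member (those of E2F3 are not reported here), and overlapping genes. Alternatives were RLE scaling, no or a stricter filter (1 CPM in 4 samples), DESeq2 1.42.0, limma-voom 3.58.1, a replicate block with and without GC and length correction, other fold minimums, subsets of samples and, per length, the longest transcript.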

Additional observations from a re-analysis of the deposited data

Results flagged for a closer look

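The interactions of E2F1 (-1.02) and E2F2 (-1.50) stood out because the effect of RA differed between cells with and without PB by a direct test. The log2 fold change with RA was -0.32 for E2F1 and -0.33 for E2F2 without PB, and -1.34 and -1.83 with PB. In the 16 fits that left out 1 sample, the interaction ranged from -1.08 to -0.92 for E2F1 and from -1.60 to -1.42 for E2F2. Within replicates 1 and 2 it was -1.23 and -1.59, and within replicates 3 and 4 it was -0.76 and -1.33. The mitotic markers had a median interaction of -0.98 beside these, and their part in the result was not tested.

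RBL2 with PB in replicate 2, at 53.4 CPM, stood apart from the other 3 PB samples with a Dixon ratio of 0.83, just past the critical value for 4 samples. It was the only 1 of 40 groups of 4 that did so, where chance gives about 1 in 20.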

How the results depend on the processing

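The 5 falling genes kept their calls in 397 of 400 values under the alternatives run. The exceptions were E2F8 between PB+RA and PB when only those 2 groups were fitted (-1.24), and, with a log2 fold minimum of 1, E2F1 with PB (-0.81) and RBL1 between PB+RA and PB (-0.84). The number of members called with RA (1) was the least settled. It was 0 with no filter and with a log2 fold minimum of 1, 2 with DESeq2, limma-voom, the replicate block, the block with GC and length correction, replicates 3 and 4 alone, and only 2 groups fitted, 3 with replicates 1 and 2 alone, 5 with no fold minimum, and 0 to 1 when 1 sample was left out. It turned on E2F5, E2F7 and E2F8, which lay near the thresholds, with RBL1 added in replicates 3 and 4 and E2F1, E2F2, E2F4 and RBL1 with no fold minimum. The members called in the interaction (2) became 4 with replicates 3 and 4 alone, with E2F5 (-0.51) and E2F7 (-0.69) added. E2F5 was also called there in replicates 1 and 2 (-0.60) and with block and GC and length correction (-0.51). The cause of these differences was not tested.

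The replicate block called E2F8 with RA (-0.59), E2F5 in the interaction (-0.58) and CDK6 with PB (0.51), and changed no other call of a member or of a gene of the 4 short lists against DMSO. It raised the genes called in the interaction from 530 to 1171 (1064 with GC and length correction). Leaving out DMSO replicate 1 or RA replicate 3 gave 353 or 342. Without a fold minimum, 8269 genes passed with PB, 5420 with RA and 10189 with PB+RA, against 4352, 2053 and 6455. A minimum of 1 left 1686, 914 and 3120. Of the G1/S genes, the 2 lower with RA became 4 with RLE scaling or DESeq2, 12 with block and correction, 1 in replicates 1 and 2, 7 in replicates 3 and 4, 25 with no fold minimum and 0 with a minimum of 1, and the 28 lower with PB became 18 with that minimum. The mitotic gene called with RA (1) became 0 to 7 over the alternatives. With block and correction, TFDP2 (0.31), CCND1 (0.47) and MAX (0.32) were not called with PB+RA and L3MBTL2 (-0.54) was.

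Directions reversed in 14 of 1270 member values, none called. E2F6 between PB+RA and PB (0.00037) was -0.00043 with limma-voom, -0.0026 with the block, -0.012 with block and correction, -0.081 in replicates 3 and 4, and -0.048 to 0.075 without 1 sample. E2F3 with PB+RA (0.05) was -0.094 with block and correction and -0.0019 in replicates 1 and 2. E2F6 with PB+RA (-0.03) was 0.030 in replicates 1 and 2 and -0.11 to 0.021 without 1 sample. RBL2 between PB+RA and RA spanned -0.15 to 0.0059 and E2F5 between PB+RA and PB -0.15 to 0.015 without 1 sample.

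By longest transcript, the share of E2F1 to E2F3 was 62.3%, 59.2%, 53.8% and 41.1%, and the RBL2 to RBL1 ratio 1.64, 2.01, 3.64 and 6.35, for DMSO, RA, PB and PB+RA, in the same order as with all exons. The E2F1 to E2F4 ratio was lower than with all exons, at 1.996, 1.784, 1.175 and 0.553 for the same groups. Depth limits E2F7 and E2F8 with PB+RA, which had 15 to 48 and 5 to 31 reads per sample.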
